A study of Homo sapiens with 4 samples.

Results

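AHRR, PDCD6, EXOC3 and TERT are 4 genes near the tip of the short arm of chromosome 5, between positions 200000 and 1400000 of GRCh38. They were chosen on measured values, the strong H3K27Ac peaks seen at AHRR, so their peak values are given as a description and without a test. They are 4 of 19667 protein-coding genes used and 4 of 20 whose body meets the window, and the window held 213 of 55852 peaks in MOLM13 cells treated with OTX015 and 160 of 86207 peaks in cells treated with SNDX-50469 and OTX015. MOLM13 is a human acute myeloid leukemia line with an MLL-AF9 fusion. Cells were exposed for 16 hours to 500 nM of the BET inhibitor OTX015 or to 500 nM OTX015 together with 500 nM of the Menin inhibitor SNDX-50469, so both groups carried the BET inhibitor. There was 1 ChIP library per treatment, so no difference has a replicate check. The 2 input libraries, untreated cells and SNDX-50469 alone were not analysed here.

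Acetylation of lysine 27 of histone H3 marks active promoters and enhancers, and broad acetylated domains are typical of genes that are strongly used in a cell type. AHRR encodes the aryl hydrocarbon receptor repressor, a bHLH-PAS protein that competes with the aryl hydrocarbon receptor AHR for its partner ARNT at xenobiotic response elements. PDCD6 encodes ALG-2, a calcium-binding penta-EF-hand protein of vesicle transport, EXOC3 encodes a subunit of the exocyst complex that tethers secretory vesicles, and TERT encodes the catalytic subunit of telomerase, which is switched on in many cancers. PDCD6, AHRR and EXOC3 follow each other on the plus strand, and TERT lies farther from the tip on the minus strand.

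The promoters of the 3 neighbouring genes are shown first because peaks lay over those of AHRR and EXOC3 but not over that of PDCD6. Each run is the 250 bases before a RefSeq start on the plus strand of GRCh38.p14, 5′ to 3′. Capitals mark GCGTG, the core of the xenobiotic response element, and GGGCGG, the GC box, on either strand.
PDCD6, chr5:271396-271645: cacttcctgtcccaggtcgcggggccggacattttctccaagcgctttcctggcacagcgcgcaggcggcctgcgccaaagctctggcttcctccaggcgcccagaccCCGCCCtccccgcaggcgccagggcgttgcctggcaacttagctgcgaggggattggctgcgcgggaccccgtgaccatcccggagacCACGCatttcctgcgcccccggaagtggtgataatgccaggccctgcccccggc
AHRR first start, chr5:321464-321713: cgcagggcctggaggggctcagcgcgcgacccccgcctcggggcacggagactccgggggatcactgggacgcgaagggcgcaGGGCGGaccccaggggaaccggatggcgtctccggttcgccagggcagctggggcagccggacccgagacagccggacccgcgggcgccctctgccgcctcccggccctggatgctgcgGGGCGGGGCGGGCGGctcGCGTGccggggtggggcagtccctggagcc
AHRR second start, chr5:322360-322609: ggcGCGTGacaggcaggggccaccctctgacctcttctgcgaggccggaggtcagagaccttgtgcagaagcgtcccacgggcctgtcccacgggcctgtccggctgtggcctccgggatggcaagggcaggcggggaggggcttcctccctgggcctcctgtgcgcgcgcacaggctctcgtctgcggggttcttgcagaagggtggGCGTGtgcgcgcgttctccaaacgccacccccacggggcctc
EXOC3, chr5:442926-443175: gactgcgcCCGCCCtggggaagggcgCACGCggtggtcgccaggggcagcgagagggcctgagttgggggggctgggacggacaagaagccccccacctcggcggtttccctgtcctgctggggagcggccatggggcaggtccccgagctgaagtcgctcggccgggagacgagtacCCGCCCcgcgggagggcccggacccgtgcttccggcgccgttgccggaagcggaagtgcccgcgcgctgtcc

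All 250 bases of both AHRR promoters and of the EXOC3 promoter lay under a peak in both lists, whereas 0 bases of the PDCD6 promoter did in either. GCGTG matched once in the PDCD6, first AHRR and EXOC3 promoters, and the second AHRR promoter held 2 matches; of 35116 RefSeq promoter entries of this length, 32.2% held at least 1. The first AHRR promoter held 4 GGGCGG matches, several of them overlapping in a single run of capitals, PDCD6 held 1, EXOC3 held 2 and the second AHRR promoter held 0, against 42.6% of all entries with at least 1. CACGTG, the E-box, and TATAAA, the TATA box, matched none of the 4, and 6.34% and 10.7% of all entries held them. The GC content was 79.2% and 71.2% in the AHRR promoters, 75.2% in EXOC3 and 69.6% in PDCD6, with a median of 58.0% over all entries. PDCD6, without a peak, thus held the same core motif as its neighbours with peaks, and a match says nothing of binding.

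The deposited values are, for each broad peak, a fold enrichment and a −log10 q from the peak caller. The combination library had the higher background, 1.47 against 0.764 fragments per base as solved from the lowest peaks, which makes it 1.92 times as deep by this measure. A fold is therefore also given as the mean pileup in times background, which starts at 6.54 times for OTX015 and at 4.76 times for the combination. Chromosome 8 held 43.4% of OTX015 peaks and 48.1% of combination peaks, so ranks are given with and without it. Of the 10 myeloid markers, such as SPI1, MPO and CD33, 9 had peak cover with OTX015 and 10 with the combination, in all 53.6 and 71.8 kb, where 51.0% and 53.8% of all 19667 genes had cover. Of 4 B cell markers counted, 2 and 4 had cover, 2.84 and 7.21 kb in all, so B cell genes were not bare. T cell markers had cover at 2 and 2 of 5 genes, erythroid markers at 1 and 1 of 4 counted and markers outside blood at 1 and 2 of 5, with 0.130 to 1.16 kb per list. CD3E, CD2, BCL11B, HBB, HBA1, ALAS2, ALB and COL1A2 had no cover in either library.

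AHRR held the strongest acetylation of the window in both treatments. The highest OTX015 peak, chr5:392492-397025, was 4.53 kb wide, with a fold of 17.2, a −log10 q of 32.7 and a mean pileup of 38.3 times background, and ranked 4 of all OTX015 peaks by −log10 q. Its counterpart with SNDX-50469 and OTX015, chr5:392502-397013, was 4.51 kb wide with a fold of 9.09, a −log10 q of 14.4 and 14.6 times background, and ranked 9. Both sit 70.8 to 75.3 kb downstream of the AHRR 5′ end, inside the gene body, and their edges differ by little.

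The broadest strong peak of AHRR lay upstream of it. With OTX015 it ran over chr5:365281-381420, 16.1 kb, at a fold of 12.6, a −log10 q of 21.1 and 27.9 times background. With the combination it ran over chr5:365564-382450, 16.9 kb, at a fold of 9.0, a −log10 q of 14.7 and 14.4 times background. It led the window in that list by −log10 q, and the peak described before it led by fold. A narrow peak nearer the 5′ end, at chr5:342362-344364 with OTX015 and chr5:342009-344369 with the combination, was 2.0 and 2.36 kb wide, at folds of 8.85 and 7.08 and at 19.1 and 11.2 times background. In both lists each of these 3 stretches was higher than the peaks next to it, and the middle one was also among the widest. With the combination the peak at chr5:398277-403363, at 13.7 times background, stood above the narrow one.

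Downstream of the highest peak, acetylation went on to the end of AHRR and into EXOC3. The OTX015 list has 1 peak of 12.3 kb at chr5:398272-410531, with a fold of 8.65 and 18.6 times background, where the combination list is broken into several, of which chr5:398277-403363 is the highest at a fold of 8.57 and 13.7 times background. Farther on, chr5:411874-426164 in the OTX015 list was 14.3 kb wide at 12.3 times background, and chr5:415750-424014 in the combination list was 8.27 kb wide at 8.62 times background. The last peak spanned the AHRR 3′ end and the EXOC3 5′ end in both lists. It measured 19.2 kb with OTX015, chr5:427192-446395, at a fold of 5.86 and a −log10 q of 4.90, and 18.1 kb with the combination, chr5:427155-445208, at a fold of 4.59 and a −log10 q of 3.42. It was the widest peak of the window in each list.

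**Figure D1:**
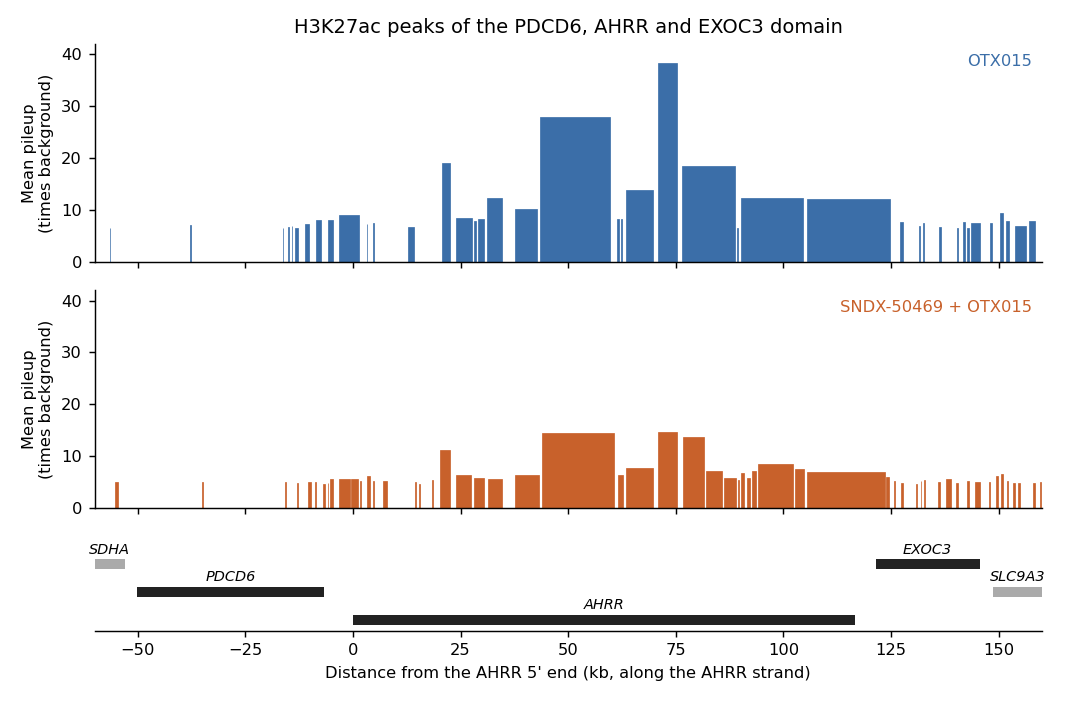
Peaks around PDCD6, AHRR and EXOC3 with OTX015 (top) and with SNDX-50469 plus OTX015 (middle), each block 1 peak whose height is its mean pileup in times background, against distance from the AHRR 5′ end in kb; gene bodies are drawn below. The blocks over AHRR reach 38.3 times background with OTX015 and 14.6 with the combination at the same place, while PDCD6 carries only low, narrow blocks.

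The AHRR 5′ end itself carried a modest peak. With OTX015 it was chr5:318417-323110, 4.69 kb wide, at a fold of 4.48, a −log10 q of 2.58 and 9.03 times background, and all of the 1 kb either side of the 5′ end was covered. With the combination 78.2% of the same window was covered, and no peak there passed a fold of 3.80. Cut into 4 equal lengths of 29.1 kb from the 5′ end, the AHRR body was covered over 32.2%, 84.4%, 81.0% and 92.7% with OTX015 and over 38.9%, 83.5%, 83.5% and 86.5% with the combination. The first length was the least covered in both libraries, and the highest peak was in the third in both.

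Peaks of high significance in these lists were few, and AHRR held a visible share of them. Of the peaks with a −log10 q of at least 10, 4 of 17 in the OTX015 list and 3 of 13 in the combination list lay over the AHRR body. At a −log10 q of at least 5 the counts were 6 of 129 and 5 of 69, and at 2 they were 14 of 4211 and 18 of 11097. Peaks of at least 10 kb numbered 31 and 38 in the 2 lists, of which 4 and 2 met AHRR. The AHRR body took up 37.8% of all peak cover of the window with OTX015 and 51.7% with the combination.

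Peak cover of the AHRR locus, the gene body with 10 kb either side, was 98.2 kb in 21 peaks with OTX015 and 97.5 kb in 35 peaks with the combination. This is 71.9% and 71.4% of its length. By this percentage AHRR ranked 1 of 19667 genes with OTX015 and 12 with the combination, and 1 of the 19000 genes off chromosome 8 in both. The difference of -0.693 kb is small beside the cover, and it turned to 0.636 kb over the gene body alone, 84.6 against 85.2 kb. With equal peak numbers in the 2 lists the AHRR locus had 98.2 and 96.7 kb, and with peaks of a −log10 q of at least 2 it had 93.4 and 88.4 kb. Other peak sets did not keep the near equality. With peaks of a −log10 q of at least 5 the AHRR locus had 55.4 and 37.1 kb. At a common enrichment over background of 6.54 times it had 98.2 and 68.6 kb. That cut is the lowest value of the OTX015 list, so it kept all 55852 OTX015 peaks but 1166 of 86207 combination peaks.

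EXOC3 was the second most covered member. Its locus had 21.8 kb in 13 peaks with OTX015 and 20.3 kb in 18 peaks with the combination, 49.4% and 46.1% of its length. Most of this came from the wide peak over its 5′ end, since the gene body was covered over 33.4% and 31.6%. The 1 kb either side of the EXOC3 5′ end was covered completely in both libraries.

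PDCD6 had 9.11 kb of locus cover in 11 peaks with OTX015 and 7.58 kb in 12 peaks with the combination, 14.4% and 12.0% of its length. Its highest folds were 4.48 and 3.80, and neither peak lay in the PDCD6 body. The former belongs to the peak over the neighbouring AHRR 5′ end, the latter to chr5:318453-320942, just before that end. Within the PDCD6 body alone the cover was 3.19 and 1.62 kb, and the highest folds were 4.05 and 3.46. No peak lay within 1 kb of its 5′ end in either library, and the 10 kb either side held 1 peak in each, with 0.118 and 0.670 kb of cover.

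TERT had little cover beside AHRR and EXOC3, and its peaks were weak. By kb of locus cover it still ranked 1048 of 19667 genes with OTX015 and 4532 with the combination. The 13 OTX015 peaks of its locus covered 4.4 kb, 7.11% of the length, with widths of 130 to 1174 bp, folds of 3.40 to 3.95 and at most 7.81 times background, near the lowest value that list can hold. The combination list had 2 peaks there, chr5:1287041-1287366 at a fold of 3.65 and chr5:1288301-1288904 at a fold of 3.82, with 0.930 kb of cover or 1.5% of the length. No peak lay within 1 kb of the TERT 5′ end in either list, the nearest being 1.01 kb away with OTX015 and 6.16 kb away with the combination. None of the 13 peaks overlapped either of the other 2.

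Peaks lay at the 5′ ends of 2 of the 4 genes in each list, AHRR and EXOC3, counting 1 kb either side, where 14.9% of all 19667 5′ ends were so marked by OTX015 peaks and 15.4% by combination peaks. TERT alone was covered at least 2 times less with the combination, a call made for 27.6% of the 12955 loci with any cover, and 0 of 4 were covered at least 2 times more, where 41.5% of loci were. Among the 608 covered loci of chromosome 5 these shares were 33.1% and 33.1%. The drop at TERT rests on weak peaks, and with peaks of a −log10 q of at least 2 no TERT cover was left in the OTX015 list, against 0.604 kb with SNDX-50469 added.

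The domain from PDCD6 to EXOC3, with 10 kb either side, was set against TERT and against the stretch between them. The domain, chr5:261646-477290, was covered over 50.5% of its 216 kb with OTX015 and 49.4% with the combination, by 40 and 54 peaks. TERT with 10 kb either side was covered over 7.11% and 1.5%, so the domain exceeded it by 43.4 and 47.9 percentage points. The stretch of 766 kb between them was covered over 13% and 6.80%, by 136 and 92 peaks. Domain cover was nearly the same in the 2 lists as deposited, and cover of the other intervals was lower with the combination.

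In height too the domain came first. The mean fold weighted by peak length was 7.25 and 5.56 in the domain, 4.28 and 3.73 in the stretch between, and 3.55 and 3.76 at TERT. The highest pileup of the domain was 4.91 times that of TERT with OTX015 and 2.55 times with the combination. All 6 and 5 domain peaks with a −log10 q of at least 5 met AHRR, and TERT had 0 in both lists. The one other peak of this size in the window lay in the stretch between, chr5:956003-970168 in the OTX015 list, 14.2 kb wide at a fold of 7.23 and 15.4 times background, over no protein-coding gene body, with TRIP13 as the nearest. Its counterpart in the combination list, chr5:956671-966984, had a fold of 4.65 and 7.14 times background.

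**Figure D2:**
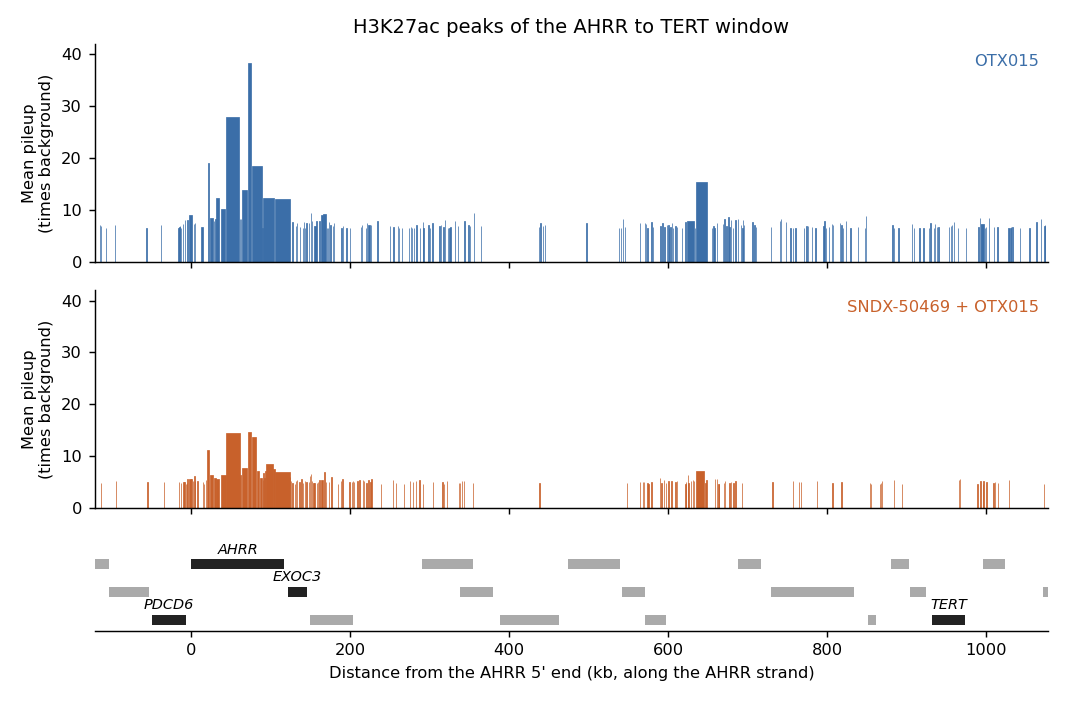
Peaks of the whole window with OTX015 (top) and with SNDX-50469 plus OTX015 (middle), as mean pileup in times background against distance from the AHRR 5′ end in kb, with protein-coding gene bodies below and the 4 genes in black. The AHRR blocks stand above all others, the peak between TRIP13 and NKD2 reaches 15.4 times background with OTX015, and the blocks at TERT reach at most 7.81.

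The window as a whole was covered over 18.7% with OTX015 and 13.7% with the combination, 224 against 165 kb, whereas chromosome 5 in all had 1467 and 1643 kb of cover. Of the 20 protein-coding loci of the window, 17 were covered less with the combination and 3 more, CCDC127, SDHA and LOC124900189. Over chromosome 5 outside the window 276 of 588 covered loci were covered less, 46.9%, and over all genes 40.7%. The median difference was -1.94 kb in the window and 0.134 kb over all covered loci. Neighbouring loci share peaks, so the 20 are not independent.

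SLC9A3, a sodium and hydrogen exchanger next to EXOC3, had 20.4 and 14.7 kb of locus cover. CLPTM1L, the neighbour of TERT, had 10.3 and 4.38 kb, and CEP72, a centrosomal protein, had 10.4 and 5.34 kb. SLC12A7, a potassium and chloride cotransporter, had 9.11 and 1.91 kb, the largest loss of the window at -7.20 kb. NKD2, an inhibitor of Wnt signalling, had 6.95 and 3.35 kb, TRIP13, an ATPase of the mitotic checkpoint, had 6.38 and 6.03 kb, and BRD9, a bromodomain subunit of a BAF complex, had 4.95 and 2.39 kb. These loci lay between the domain and TERT or beside them, and apart from TRIP13 each lost more cover than AHRR, EXOC3 or PDCD6 did.

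The rest of the window had little cover. ZDHHC11B and ZDHHC11, of a family of palmitoyltransferases, had 1.27 and 3.20 kb in the OTX015 library but 0.107 and 0.109 kb in the other, and a stretch of 73.6 kb reaching from TPPP into ZDHHC11B had no peak in either list; whether reads could be placed there was not tested. TPPP had 3.11 and 1.68 kb, SLC6A19 1.69 and 0.567 kb, SLC6A18 3.05 and 0.111 kb, and SLC6A3, the dopamine transporter, 3.37 and 1.03 kb. CCDC127 had 3.37 and 3.46 kb, SDHA, a subunit of succinate dehydrogenase, 0.551 and 0.912 kb, and LOC124900189 0.398 and 1.07 kb. At these levels 1 or a few narrow peaks decide the difference.

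**Figure D3:**
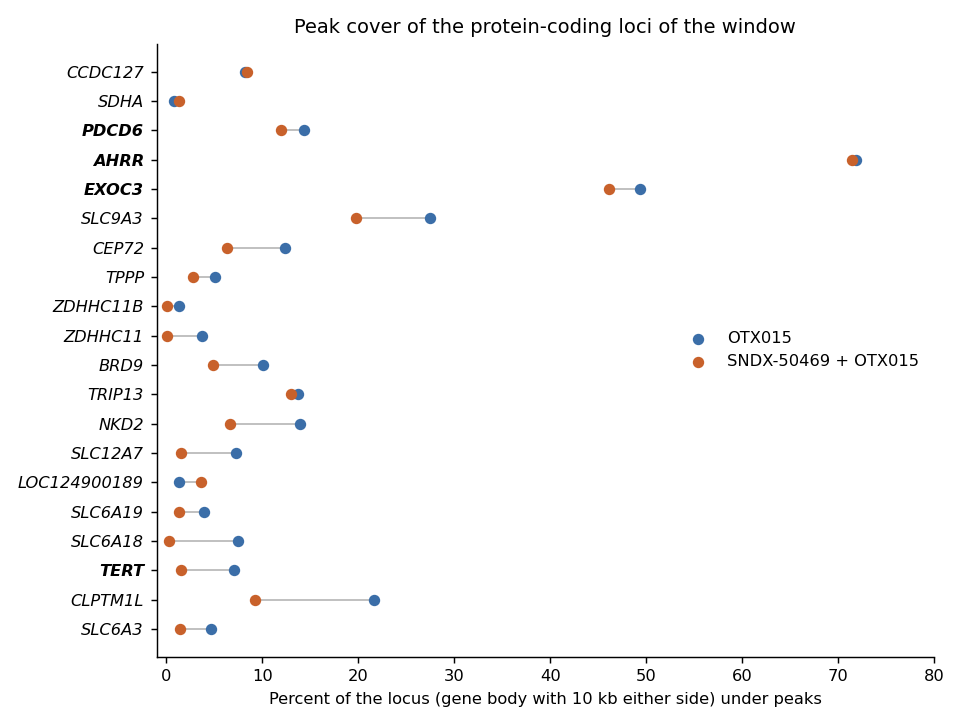
Percent of each protein-coding locus of the window under peaks, 1 dot per library, ordered along the chromosome, with the 4 genes in bold. AHRR lies at 71.9% and 71.4%, EXOC3 at 49.4% and 46.1%, PDCD6 at 14.4% and 12.0%, and TERT at 7.11% and 1.5%.

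Peaks of the 2 lists coincided more in the domain than at TERT. Of the 40 OTX015 peaks of the domain, 30 overlapped a combination peak by at least 1 bp, 75.0% (95% Wilson interval 59.8 to 85.8), and of the 54 combination peaks 37 overlapped an OTX015 peak, 68.5% (55.3 to 79.3). Between the domain and TERT the shares were 25% of 136 and 44.6% of 92, and at TERT 0 of 13 and 0 of 2, for which the intervals reach up to 22.8% and 65.8%. Over the whole window 33.3% of OTX015 and 53.8% of combination peaks were shared, over all chromosomes 33.3% and 21.0%, and on chromosome 5 outside the window 16.0% and 13.6%. In bases, 94.0 kb of the domain lay under peaks of both lists, 86.3% of the OTX015 cover and 88.3% of the combination cover. Wide peaks meet another list more easily than narrow ones, and these intervals cover counting over peaks only.

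After stitching, the domain was the highest in the genome off chromosome 8 in both treatments. Peaks lying entirely inside 2.5 kb around a start were dropped, the others joined over short gaps, and each domain scored by peak length times fold. With OTX015 the stitched domain ran over chr5:305382-521730, 216 kb with 52 peaks and a score of 847 kb, and ranked 3 of 18975. With the combination it ran over chr5:305944-560508, 255 kb with 71 peaks and a score of 633 kb, and ranked 28 of 18586. In both libraries it took in AHRR, EXOC3, part of PDCD6 and SLC9A3, and every domain ranked above it lay on chromosome 8.

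The next domains off chromosome 8 had lower scores in the OTX015 list than in the combination list. They are different places, and the lists differ in depth and peak number, so this is no measure of the treatments. Each is named by the gene most overlapped or nearest, so a name does not mean that the domain met that gene. With OTX015 the names were TRIP13, in the same window, at 219 kb, LOC124905135 at 214, ETV6 at 199 and VEGFA at 184. With the combination the names were LY86 at 526 kb, JARID2 at 365, TRERF1 at 267 and FRY at 265. The domains that met TERT scored 13.0 kb at rank 1269 with OTX015 and 3.49 kb at rank 3610 with the combination. On the scaled rank curve, 244 and 197 domains lay beyond the place where the slope reaches 1, with the AHRR domain among them in both lists and the TERT domains not.

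**Figure D4:**
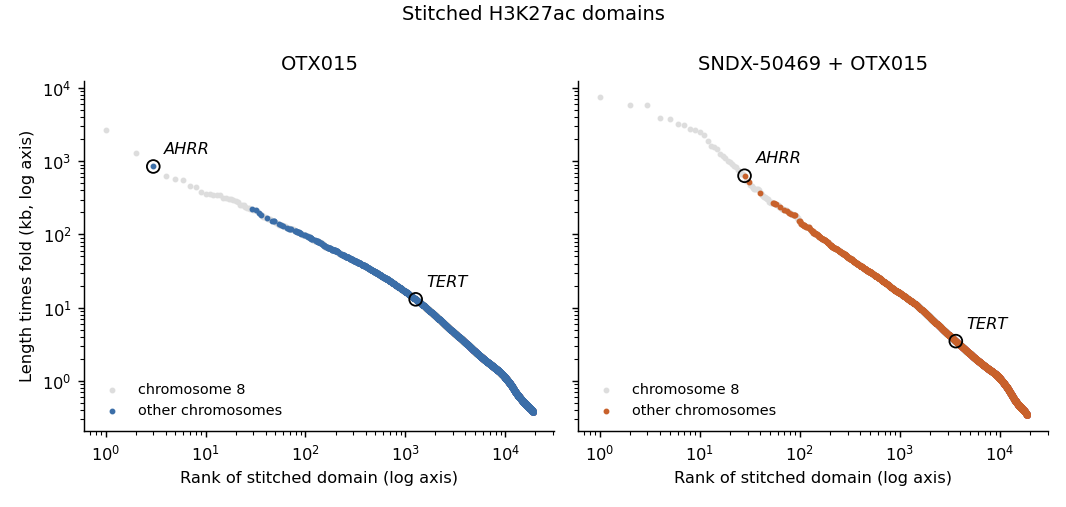
Score of every stitched domain, peak length times fold in kb, against its rank on log axes, for OTX015 (left) and SNDX-50469 plus OTX015 (right), with domains of chromosome 8 in grey. The domain of AHRR ranks 3 and 28 and is the first that is not on chromosome 8, and TERT ranks 1269 and 3610.

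Heights were compared over the 16772 regions with peaks in both lists, as the mean pileup in times background with the combination over that with OTX015. The lowest values that the lists can hold have a ratio of 0.728, and the median over all regions was 0.737, which is close to it. The 28 regions of the domain had a median ratio of 0.683 and ranged from 0.381 to 0.859, and 2 of them were at most 0.5, where 0.584% of all regions were. At the highest AHRR peak the pileup was 38.3 and 14.6 times background, a ratio of 0.381. Over the 17.2 kb around the broad peak upstream it was 27.9 and 14.4, a ratio of 0.519.

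The AHRR regions ranged widely. A region of 3.44 kb at chr5:352962-356400 had 12.3 and 5.55 times background, a ratio of 0.452. The narrow peak nearer the 5′ end had a ratio of 0.586, the region of 12.3 kb downstream of the highest peak 0.525, the region over the 3′ end and EXOC3 0.573 and the AHRR 5′ end 0.625. The highest ratios in the gene were at weak, narrow regions, up to 0.859 at chr5:324918-325782, where the pileup was 7.27 and 6.24 times background. All 67 shared regions of the window were below 1, as were 16719 of the 16772. Ratios as low as those at AHRR were found at strong regions elsewhere. Of the regions with at least 15 times background in the OTX015 list, the 5 of the window had a median ratio of 0.519, and the 25 outside the window and chromosome 8 had a median of 0.439. These were taken for their OTX015 value, which by itself favours a lower value in the other list. Among all shared regions the highest AHRR peak ranked 3 with OTX015 and 7 with the combination, and the broad peak 7 and 8.

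**Figure D5:**
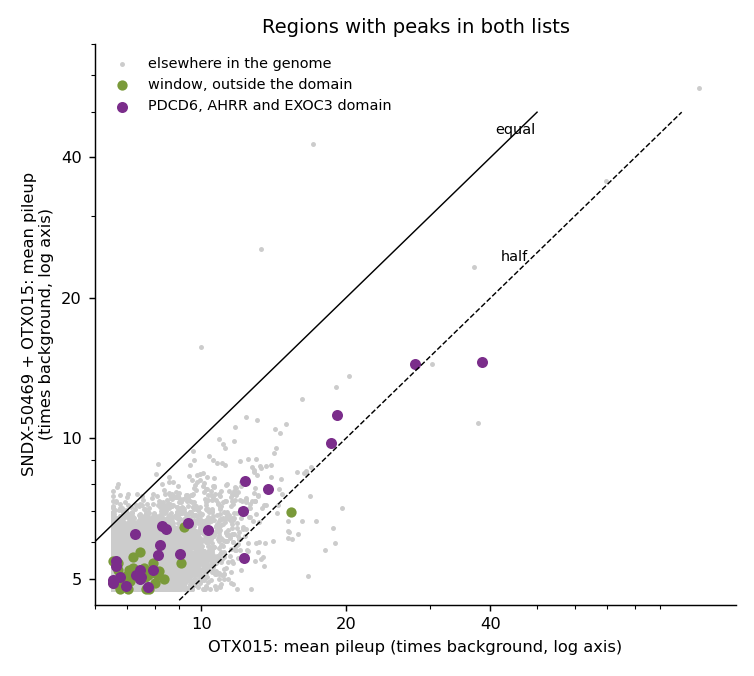
Mean pileup in times background with SNDX-50469 plus OTX015 against OTX015 for each region with peaks in both lists, on log axes, with lines of equal value and of a ratio of 0.5. The 4 highest domain regions lie at 18.6 to 38.3 times background with OTX015 and at 9.78 to 14.6 with the combination, among other strong regions of the genome.

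Among the 14 genes of the AHR pathway, AHRR stood alone in its cover. AHRR was chosen for its strong peaks, so this lead is a description and not a finding about the pathway. It held 98.2 of the 107 kb of the list with OTX015 and 97.5 of 107 kb with the combination. AHR itself, the ligand-binding receptor, had 0 and 0.859 kb, and its partner ARNT had no peak in either library. The targets CYP1A1, CYP1A2, CYP1B1 and TIPARP had 0 and 0.198, 0 and 0, 2.95 and 2.98, and 0 and 0 kb. The chaperones HSP90AB1 and HSP90AA1 had 1.62 and 2.51 kb and 1.06 and 0.297 kb. Of 11 genes with cover, 5 had more with the combination and 6 less, with a median difference of -0.005 kb beside 0.134 kb over all covered genes. Of all 19667 genes, 12955 had cover, 7681 of them more and 5270 less with the combination.

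EXOC3 and PDCD6 were likewise the most covered genes of their lists, counting 10 kb either side of each gene body. They were chosen together with AHRR on measured values, so this too is a description. For PDCD6 most of this lay outside the body, which alone held 3.19 kb (OTX015) and 1.62 kb (combination). The PDCD6 flank takes in peaks at the AHRR 5′ end, so its place in the list rests in part on its neighbour. The EXOC3 flank takes in part of the peak over the AHRR 3′ end. The EXOC3 body alone held 8.06 kb (OTX015) and 7.62 kb (combination). Of 9 exocyst subunits, 8 had cover, 6 more and 2 less with the combination, and EXOC3 held 21.8 of 24 kb with OTX015 and 20.3 of 27.8 kb with the combination, ahead of EXOC2 at 1.68 and 4.98 kb and EXOC4 at 0.138 and 0.742 kb. Of 12 penta-EF-hand proteins and ALG-2 partners, 7 had cover, 4 more and 3 less, and PDCD6 held 9.11 of 11.2 kb and 7.58 of 11.8 kb, ahead of the lysosomal channel MCOLN1 at 1.15 and 2.71 kb and of ANXA11 at 0.414 and 0 kb. The median differences were 0.409 and 0.226 kb, beside 0.134 kb over all covered genes. Of all 19667 genes, 12955 had cover, 7681 of them more and 5270 less.

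Of 13 telomerase and shelterin genes, 7 had cover, 3 more and 4 less, with a median difference of -0.004 kb. For this list and the next, the counts over all 19667 genes were 12955 with cover, 7681 more and 5270 less. TERT held 4.4 of 8.32 kb with OTX015 and 0.930 of 14.5 kb with the combination, where TERF1, a telomere-binding protein encoded on chromosome 8, had 1.41 and 10.3 kb and WRAP53, which guides telomerase RNA, had 0.978 and 2.27 kb. Of 19 bHLH-PAS proteins, 15 had cover, 10 more and 5 less, with a median of 0.278 kb. NCOA2, a coactivator encoded on chromosome 8, had 32.0 and 113 kb, SIM1 0.362 and 3.13 kb and NPAS1 0 and 1.80 kb, and AHRR had the widest cover of the list with OTX015 and came after NCOA2 with the combination.

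Genes with a pattern of cover most like AHRR were sought outside the window by the distance between log2(kb + 1) values over the 2 libraries. The nearest 5, SLC45A4, ST3GAL1, SPIDR, FAM135B and TSNARE1, all lie on chromosome 8, at distances of 0.41 to 0.77, and SLC45A4 had 73.6 and 96.1 kb. The nearest to TERT were TACC2 with 4.24 and 0.929 kb, PTPN6 with 4.06 and 0.919 kb and EIF4E3 with 4.08 and 0.878 kb. With 2 libraries such likeness says only that the amounts of cover were close.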

How the data were processed

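H3K27Ac was measured by ChIP-seq in MOLM13 cells, with 1 ChIP library per treatment. Per the submitters' processing notes the tools were bcl2fastq 2.17, Trimmomatic 0.33, Bowtie 1.1.2 and MACS2 2.1.0, on GRCh38. The authors deposited 1 broad peak list per library, in which each peak has a score, a fold enrichment (a ratio of pileup to background averaged over the peak), a −log10 p-value and a −log10 q-value; the deposited score was not used further. Read numbers are not in the lists, so depth was solved from the lowest peaks as whole pileups of 5 and 7 over a Poisson background. Whether an input entered the peak calling is not given in the sources used here. Times background uses the same background value for every place in a library. It holds no correction of its own for local input or DNA copy number, and neither was tested.

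Gene positions came from RefSeq (GRCh38.p14), and of 20037 protein-coding genes 15842 took their strand from its promoter table and 3825 from GENCODE by symbol; exons and introns of this build were not used here. Cover is the union of peaks over a locus, which is a gene body plus 10 kb at each end, and domains were stitched over gaps of up to 12.5 kb. A call is a factor of at least 2, and shares of peaks have Wilson 95% intervals, which cover counting only. Promoter sequences are from RefSeq. Some marker genes of other cell types are not reported here.

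The members, the 5 gene lists and the tests were chosen with earlier results of these data known. The text names the 4 members, the protein-coding genes of the window and the 3 genes of each other list with the largest difference. It also names the 5 and 3 genes most like AHRR and TERT. The 5 highest stitched domains off chromosome 8 are named by the gene most overlapped or nearest. The other AHR pathway genes named were added after their values were seen. Alternatives were stricter peaks, equal peak numbers (the combination list limited to 55852 peaks of highest −log10 p), a common enrichment over background (6.54 times), other gene windows, merging and stitching. With no replicates a value was said to have moved when it changed by over 1.5 times, or left its Wilson interval. Cover, background and stitching were each tested on simulated data and were right in 200 of 200 runs. Work was done in Python 3.11.15 with scipy 1.17.1 and numpy 2.4.6, tables with pandas 2.3.3, figures with matplotlib 3.10.9 and intervals with statsmodels 0.14.6.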

Additional observations from a re-analysis of the deposited data

How the results depend on the processing

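With 1 library per treatment no value could be recomputed without a replicate, and depth is known only through the solved background; the lists hold no signal below their thresholds, so missing cover is not missing acetylation. No paired analysis was possible because each treatment has 1 ChIP library. The cause of the changes below was not tested. The domain exceeded TERT under every alternative in both lists. It was chosen for its strong peaks, so the alternatives describe the size of the difference and do not test it. The difference fell to 25.7 percentage points with OTX015 and 17.2 with the combination when peaks needed a −log10 q of at least 5. At that cut TERT had no cover in either list. The difference stayed within 1.5 times elsewhere, and by length times fold per base it was 3.40 and 2.69.

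The combination had 0.751 times as many window peaks as OTX015, which turned to 1.07 times at a −log10 q of at least 2 (27 against 29 peaks) and was 0.0657 times at a common enrichment over background, which keeps 14 of its window peaks. The window cover difference of -58.9 kb became -19.1 kb at a −log10 q of at least 2, -32.5 kb at 5 and -143 kb at the common enrichment. The summed difference over the 4 loci, -5.90 kb, became -18.3 kb at a −log10 q of at least 5, -9.20 kb with equal peak numbers, -44.3 kb at the common enrichment, -3.11 kb over gene bodies, -18.0 kb with 50 kb either side, 1.34 kb with 10 kb either side of the 5′ ends and -0.436 kb with 1 kb.

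Single genes changed direction as follows. AHRR, at -0.693 kb, became 0.636 kb over the gene body and 0.753 kb around the 5′ end (10 kb either side, here and below), but was -5.03 kb at a −log10 q of at least 2, -18.3 kb at 5, -1.48 kb with equal peak numbers and -29.6 kb at the common enrichment. PDCD6 became 0.396 kb with 50 kb flanks and 0.552 kb around the 5′ end. TERT became 0.604 kb at a −log10 q of at least 2 and 0.277 kb around the 5′ end. EXOC3 never reversed. CCDC127 became -0.358 kb with equal peak numbers, -3.37 kb at the common enrichment, -1.88 kb over the body, -2.20 kb with 50 kb flanks and -0.150 kb around the 5′ end. SDHA became -0.551 kb at the common enrichment, -0.918 kb with 50 kb flanks and -0.191 kb around the 5′ end. SLC9A3 became 1.65 kb around the 5′ end and 0.602 kb within 1 kb of it. TRIP13 became 0.224 kb at a −log10 q of at least 2. LOC124900189 became -0.264 kb at a −log10 q of at least 2, -0.280 kb with equal peak numbers, -0.398 kb at the common enrichment and -2.80 kb with 50 kb flanks.

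The AHRR domain ranked 1 with OTX015 and 12 with the combination when stitched within 5 kb, 8 and 16 within 25 kb, 1 and 3 at a −log10 q of at least 2, and 1 with the combination at the common enrichment. Its span became 162 kb with the combination within 5 kb, 421 and 410 kb within 25 kb, 104 kb in both lists at a −log10 q of at least 2, and 79.6 kb with the combination at the common enrichment.

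Of the OTX015 window peaks 33.3% were shared, and 18.8% when at least 0.5 of the peak length had to be, 59.3% at a −log10 q of at least 2 in both lists, 25.8% with equal peak numbers and 4.69% at the common enrichment. Of the combination window peaks 53.8% were shared, then 40% by 0.5 of the length, 75.9% at a −log10 q of at least 2 and 100% at the common enrichment.

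The share of all loci covered at least 2 times more became 15.4% at a −log10 q of at least 5, 26.9% with equal peak numbers and 0.229% at the common enrichment. That of loci covered at least 2 times less became 66.7%, 43.9% and 97.4%. The common enrichment removed peaks from the combination list only, so its shares are largely set by the cut. Of the 20 window genes, those covered less numbered 11 at a −log10 q of at least 2, 1 at 5, and 6 within 1 kb of the 5′ end. Many of the others had no peak left in either list under these settings, so the lower counts do not mean that they kept their cover.

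Median differences of the lists became, with equal peak numbers and at the common enrichment, -0.156 and -1.06 kb for the AHR pathway, -0.082 and -0.285 kb for bHLH-PAS factors, -0.115 and -0.152 kb for exocyst subunits, -0.111 and -0.348 kb for penta-EF-hand proteins and partners, and -0.172 and -0.680 kb for telomerase and shelterin. Around the 5′ end they became 0.078 kb for the AHR pathway, 0.552 kb for penta-EF-hand proteins and 0.137 kb for telomerase and shelterin.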
